A study of Mus musculus with 2 samples.

Results

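The collagen and laminin genes were described in single-nucleus RNA sequencing of the hippocampus. They were taken by symbol, as every gene named Col, number, a, number or Lama, Lamb or Lamc with a number from 1 to 5, which gave 55 genes (44 collagens and 11 laminins) of the 32285 in the files. The study profiled nuclear RNA of 3-month-old mice with the genotype Stra8L/-; Nestin-Cre, a conditional knockout (cKO) of Stra8, the gatekeeper of meiotic entry in germ cells. Nestin-Cre expresses its recombinase in neural progenitors, so neurons and macroglia descend from cells that carried it, whereas vessels and fibroblasts mostly do not. There was 1 male and 1 female library, both of this genotype and none of another, so nothing below compares knockout with control animals. The number of animals behind a library was not given in the sources used here, and library, dissection, animal and sex cannot be told apart. With 1 library per sex no test was run: intervals are exact at 95% and cover counting error only.

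Collagens are secreted or membrane-bound proteins that wind into triple helices. The fibril-forming chains build cables of connective tissue, the fibril-associated chains decorate those cables, the chains of collagen IV form the sheet of the basement membrane, and a few membrane-spanning collagens stay on the cell surface until they are shed. Laminins are cross-shaped trimers of an alpha, a beta and a gamma chain that seed the basement membrane and bind integrins and dystroglycan. In the brain such membranes lie under the endothelium, around pericytes, at astrocyte endfeet and below the pia, while the neuropil itself is poor in fibrils.

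The male library held 103262825 unique molecular identifiers (UMIs, tags that count each captured molecule once) over 16174 barcodes, and the female library 108286856 over 20150 barcodes. After filters on genes, mitochondrial share and doublets, 13746 male and 16875 female nuclei were kept, with a median of 4321.5 UMIs in the male library and 2644 in the female one. Classes were named from 8 marker genes each after clustering without the collagens and laminins, and each name stands for nuclei that resemble the type. Neurons numbered 8271 male and 5186 female nuclei, glia 4438 and 6049, vessels 64 and 236 (endothelial cells with pericytes or smooth muscle cells), and the fibroblast or meningeal class 32 and 76. One UMI was worth 2.98 and 1.18 CPM (UMIs per 1000000 UMIs of the class) in male and female vessels and 5.61 and 2.72 CPM in male and female fibroblasts, so low levels there are coarse. Every class was checked against its markers. All 8 fibroblast markers and all 8 endothelial markers were over 2-fold above the other nuclei in both libraries, Acta2 and Higd1b were at 0 in male pericytes, Tac2 was at 0 in thalamic nuclei, and 3 of 8 markers were over 2-fold in female subiculum or entorhinal nuclei. The 8 pericyte markers summed to 1199 CPM in male and 1204 CPM in female endothelial nuclei, against 1668 and 2444 CPM in pericytes. Pericytes held 77.8 and 156 CPM of the endothelial markers, against 4419 and 3045 CPM in endothelial nuclei. The part of pericyte RNA in the endothelial collagen and laminin levels below was not tested. No cluster took the name of CA2 or of hilar mossy neurons, choroid plexus was male only (25 nuclei), thalamic or habenular neurons were female only (151 nuclei), and 911 male and 5248 female nuclei stayed unnamed. Stra8 had 2 UMIs in male and 4 in female kept nuclei, and 77 kept barcodes occurred in both libraries.

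The kept nuclei gave 135438 collagen and laminin UMIs, unevenly spread over the genes. Col25a1 alone held 28.1% of them, Col25a1, Lamc1, Lama2 and Col11a1 together 55.8%, and the 8 highest genes 80.4%. Another 29 genes stayed under 500 UMIs each and held 7154 UMIs in all, down to 43 for Col3a1. Nuclear RNA carries introns, so these are not levels per length, and UMIs or CPM of different genes set side by side below are shares of the UMIs counted, not a ranking of expression. By family, membrane-spanning collagens gave 18928 male and 22028 female UMIs, fibril-associated collagens 8083 and 9468, collagen IV 8928 and 10751, fibril-forming collagens 4683 and 11104, and collagen VI 1548 and 1495. The short-chain collagens gave 343 and 422 UMIs, the multiplexins 232 and 467, and the remaining collagens 691 and 1077. Laminin alpha chains gave 5149 and 10435 UMIs, beta chains 2765 and 2744, and gamma chains 6478 and 7619.

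Pooled over their classes, neurons carried collagen UMIs at about the level of vessels, and laminin UMIs far below it. The 44 collagens summed to 597 CPM (591 to 603) in male and 721 CPM (713 to 728) in female neurons, against 497 CPM (425 to 579) in male and 734 CPM (677 to 794) in female vessels. Fibroblasts were well above both, at 2353 CPM (2133 to 2589) in the male library and 3569 CPM (3378 to 3767) in the female one. The 11 laminins summed to 142 CPM in male and 145 CPM in female neurons, against 658 and 717 CPM in vessels and 1022 and 1169 CPM in fibroblasts. As log2 ratios of CPM plus 5, collagens of neurons over vessels were at 0.26 (0.04 to 0.49) in the male library and -0.03 (-0.14 to 0.09) in the female one, and the female interval spans 0. Neuronal collagens over those of fibroblasts were at -1.97 (-2.11 to -1.83) and -2.30 (-2.38 to -2.22), and neuronal laminins were at -2.17 (-2.36 to -1.97) and -2.27 (-2.39 to -2.15) over vessels and at -2.80 (-3.01 to -2.58) and -2.97 (-3.11 to -2.82) over fibroblasts. The neuronal sum leaned on few genes: Col25a1 gave 42.9% of it in the male library and 43% in the female one. It also leaned on GABAergic interneurons, which were 648 of 8271 male and 608 of 5186 female neurons. These gave 14295 of 37756 male and 13240 of 35991 female collagen UMIs of neurons. Without Col25a1 neurons were below vessels in both libraries (-0.26 male, -0.54 female), and without Col25a1 and Col19a1 further below (-0.62 and -0.74). Vessel nuclei also held neuronal markers: the 8 granule markers summed to 1313 and 1008 CPM in neurons and 1406 and 858 CPM in vessels, the CA1 markers to 2886 and 4385 CPM in neurons and 1132 and 1000 CPM in vessels, and the GABAergic markers to 1321 and 1141 CPM in neurons and 831 and 573 CPM in vessels. Granule neurons by themselves held 3057 and 3574 CPM of the granule markers, and glia 693 and 587 CPM. GABAergic interneurons held 5345 and 5729 CPM of the CA1 markers. The part of such RNA in the vessel collagens was not tested. The laminin gap did not rest on Lama2 alone, since without it the ratio over vessels was still -1.38 and -1.45.

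**Figure D1:**
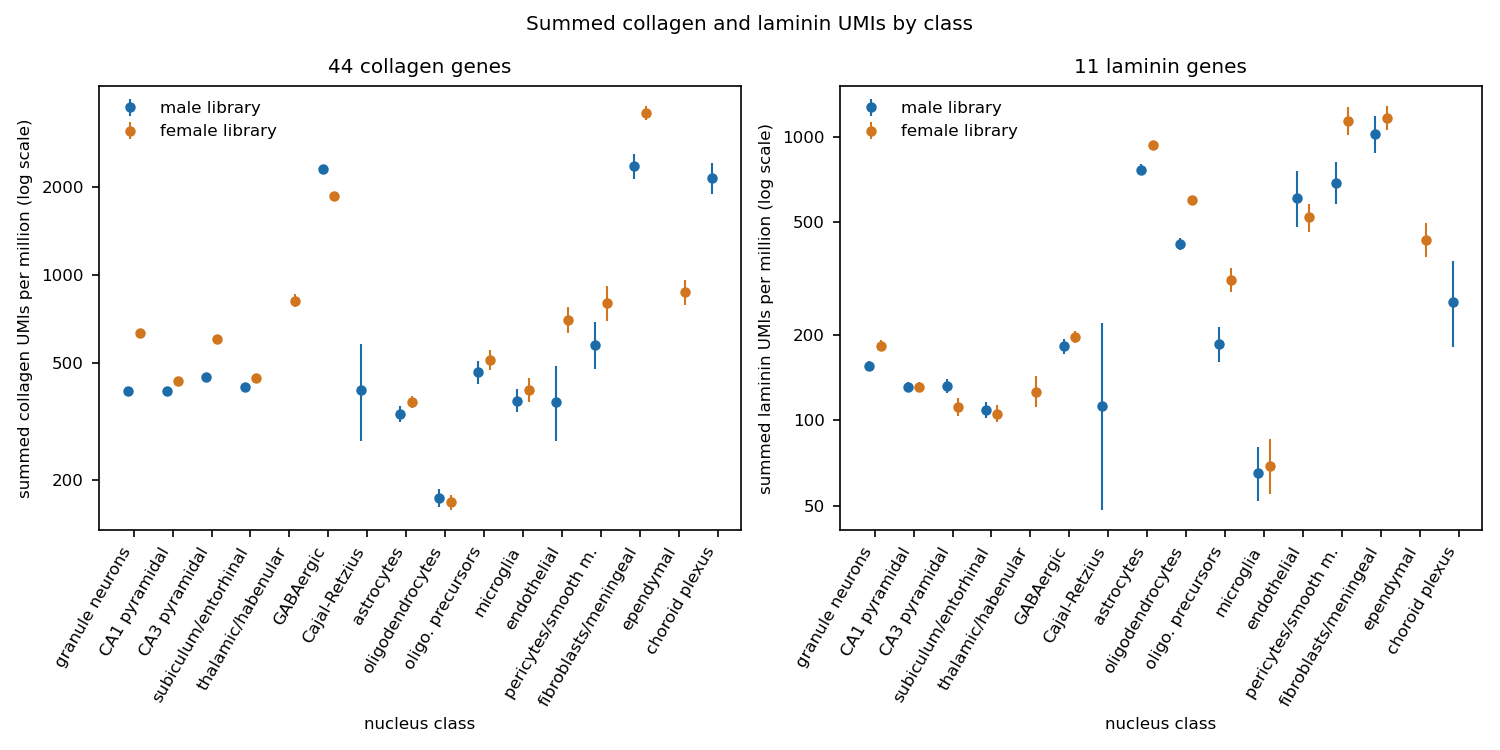
Summed CPM (UMIs per 1000000 UMIs of the class, log axis) of the 44 collagens and the 11 laminins in each nucleus class of 20 or more nuclei, male and female library side by side, with exact Poisson 95% intervals. GABAergic interneurons (2307 male, 1865 female) stand near fibroblasts (2353) for collagens in the male library and below them (3569) in the female one, and no neuronal class reaches the laminin level of astrocytes (768 and 935) or vessels.

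Within neurons the collagen sum ranged widely between classes. GABAergic interneurons reached 2307 CPM in the male library and 1865 CPM in the female one. Granule neurons held 402 and 634 CPM, CA1 pyramidal neurons 402 and 434 CPM, CA3 pyramidal neurons 448 and 603 CPM, and subiculum or entorhinal neurons 415 and 444 CPM. The interneurons thus lay far above the principal neurons in both libraries. Interneurons were also above the vessel sum (497 CPM male, 734 CPM female), while each of these principal classes was below it. In the male library the vessel interval (425 to 579) reached those of CA3 (434 to 462) and subiculum or entorhinal neurons (402 to 428). Among glia, oligodendrocytes were lowest (173 male, 168 female), and astrocytes (335, 370) lay below every principal neuron class, microglia were at 372 and 406 CPM, and oligodendrocyte precursors at 465 and 513 CPM. Of 55 genes, 26 had their highest level in the same broad class in both libraries: 12 in fibroblasts, 8 in glia, 4 in neurons and 2 in vessels. That is 47.3% of members, against 46.5% of the 19833 genes with at least 43 UMIs, and the classes differed by library (choroid plexus male only, thalamic neurons female only). The 4 neuronal genes were Col19a1, Col14a1, Col11a1 and Col4a2. The intervals of the highest and second class were apart in both libraries for Col19a1 and Col11a1 (Cajal-Retzius cells in the male library, CA3 in the female one), and in neither for Col14a1 and Col4a2.

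**Figure D2:**
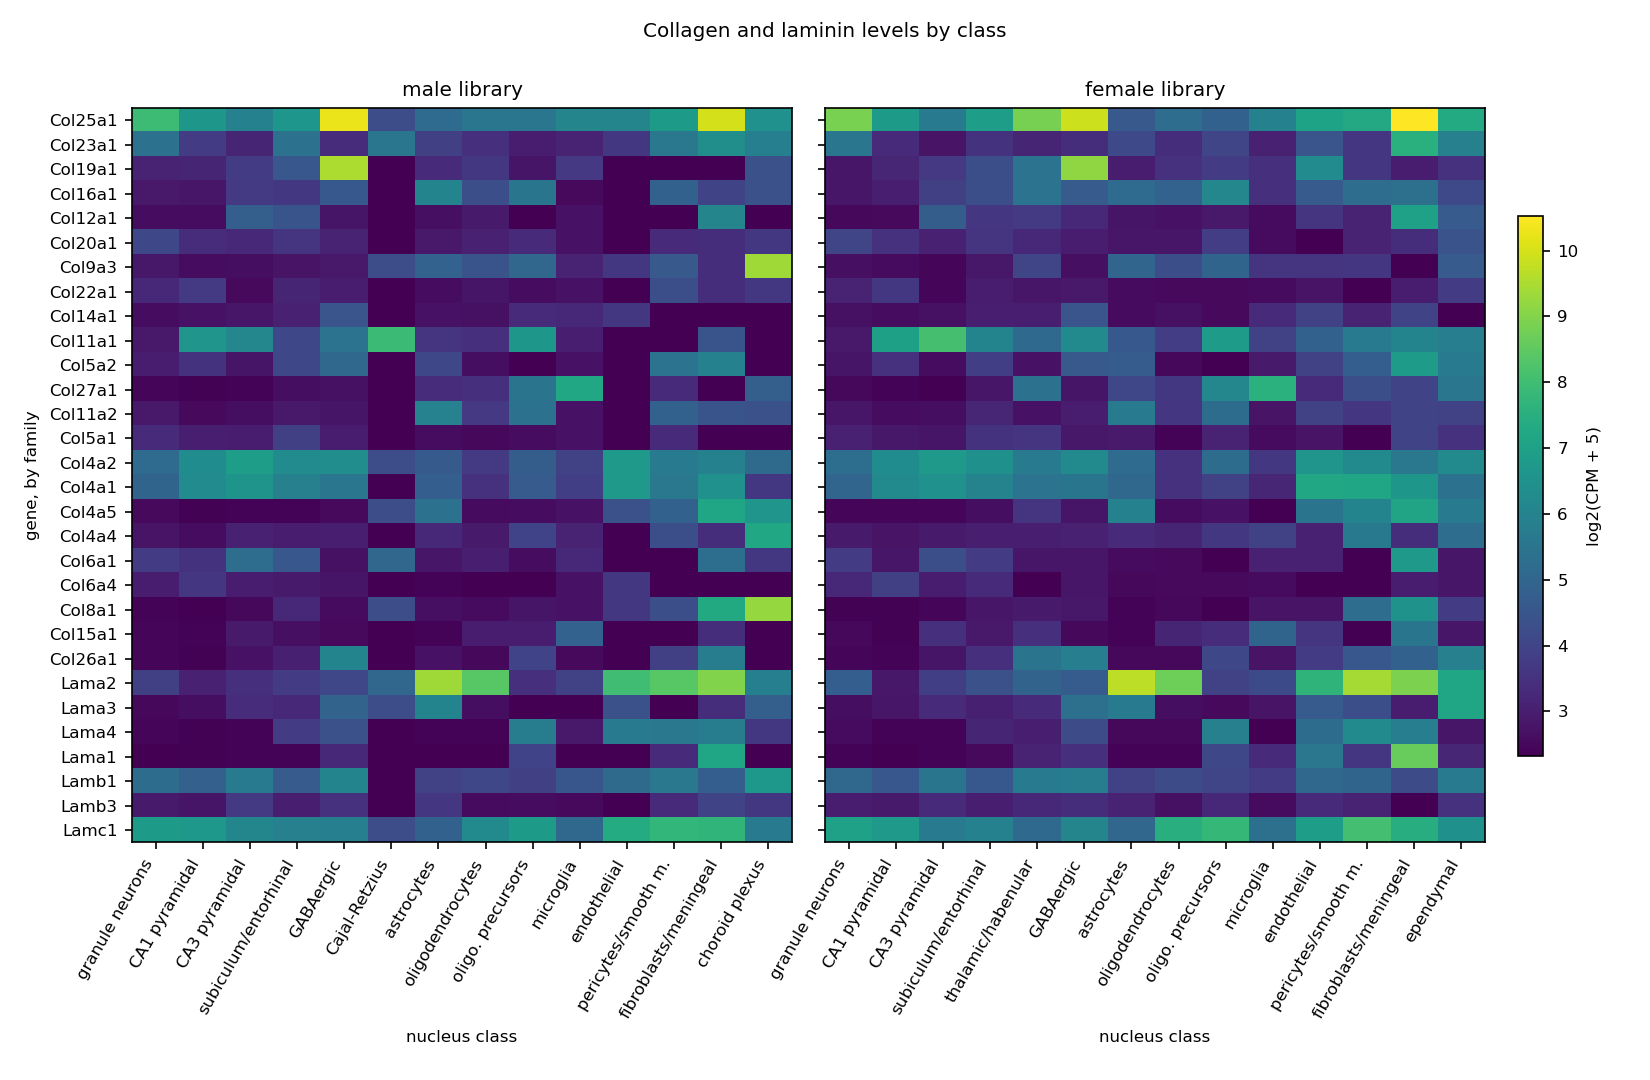
Level as log2(CPM + 5) of the 30 genes with the most UMIs, ordered by family, in every class with at least 20 nuclei in that library. Col19a1 is brightest in GABAergic interneurons (724 CPM in the male library), Lama2 in astrocytes, and Col27a1 in microglia. Col25a1 is brightest in GABAergic interneurons in the male library (1247 CPM) and in fibroblasts in the female one (1468 CPM, against 950 CPM in interneurons).

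Of the membrane-spanning collagens, Col25a1 (chromosome 3, 130131501 to 130599877, plus strand, GRCm38) is a neuronal surface collagen needed for motor axons to innervate muscle and found in amyloid plaques. Col25a1 was at 1247 CPM (1219 to 1275) in male and 950 CPM (928 to 973) in female GABAergic interneurons. In granule neurons it was at 239 and 464 CPM, in CA1 at 96.3 and 106 CPM, in subiculum or entorhinal neurons at 95.1 and 113 CPM, and in CA3 at 56.2 and 45.7 CPM. Female thalamic neurons held 453 CPM. The order of the neuronal classes was the same in both libraries, except that CA1 and subiculum or entorhinal neurons had overlapping levels. Outside neurons, fibroblasts were highest, below interneurons in the male library and above them in the female one, with 1005 CPM (863 to 1164) from 179 UMIs in the male library and 1468 CPM (1347 to 1598) from 539 UMIs in the female one. A Col25a1 UMI was present in 56.2% of male and 55.3% of female fibroblast nuclei, and still in 43.8% and 42.1% when each nucleus was thinned to 1000 UMIs. In GABAergic interneurons the shares were 65.1% and 70.2%, thinned 43.8% and 42.4%. Microglia, which are not known to make it, had a Col25a1 UMI in 9.51% of male and 7.83% of female nuclei, thinned 5.98% and 4.69%, at medians of 1541 and 1601.5 UMIs per nucleus, against 3753 and 3213.5 in fibroblasts. The fibroblast shares therefore lay well above that background. Of Col19a1, which stands beside Col25a1 in interneurons, fibroblasts held 0 UMIs in the male library and 1 in the female one, and the 8 GABAergic markers summed to 421 and 319 CPM there, against 6514 and 4384 CPM in interneurons. The 8 granule markers summed to 994 and 776 CPM and the CA1 markers to 1359 and 1613 CPM in fibroblasts, and their part in the fibroblast Col25a1 was not tested.

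Col23a1, a second membrane-spanning collagen that is shed by furin, was at 37 CPM in male and 42 CPM in female granule neurons. In subiculum or entorhinal neurons it was at 36.8 CPM in the male library and 6.45 CPM in the female one, a gap described with the other library differences. CA1 (8.86 and 5 CPM) and CA3 (4.06 and 1.74 CPM) held little of it. In fibroblasts it was at 78.6 and 180 CPM, above every neuronal class.

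Among the fibril-associated collagens, Col19a1 (chromosome 1, 24261890 to 24587472, minus strand) was far higher in interneurons than in any other named class. It is known in the hippocampus for interneurons that secrete it and for inhibitory nerve terminals that need its shed fragment. Interneurons held 4487 of its 5158 male and 4002 of its 5527 female UMIs in kept nuclei. All named neurons together held 4885 and 4330, so part of the female UMIs lay outside the named neurons. Col19a1 was at 724 CPM in male and 564 CPM in female GABAergic interneurons, against 3.73 and 2.04 CPM in granule neurons and 18.6 and 14.5 CPM in subiculum or entorhinal neurons. A UMI was found in 69.8% of male and 62.8% of female interneuron nuclei (thinned 34.9% and 27.3%), and in 1.27% and 0.997% of microglia (thinned 0.797% and 0.625%). Median depths were 8284.5 and 8863.5 UMIs in interneurons and 1541 and 1601.5 in microglia. Female endothelial nuclei held 42 Col19a1 UMIs in 9 of 156 nuclei (72.4 CPM), while male endothelial nuclei held 0 in 26. GABAergic markers were also counted in these nuclei, with a summed level over 8 markers of 899 CPM in male and 644 CPM in female endothelial cells, against 6514 and 4384 CPM in interneurons. Their part in the endothelial Col19a1 was not tested.

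The interneurons were not uniform. They fell mainly into 3 clusters, led by Reln and Fgf13 (cluster 21, 122 male and 128 female nuclei), by Kcnmb2 and Tll1 (cluster 23, 329 and 302) and by Dlx6os1 and Adarb2 (cluster 24, 192 and 158). Col25a1 was at 2462 CPM in male and 1948 CPM in female nuclei of cluster 24, at 1285 and 1093 CPM in cluster 21 and at 588 and 577 CPM in cluster 23. Col19a1 was also highest in cluster 24 (1261 and 1234 CPM), but second in cluster 23 (610 and 476) and lowest in cluster 21 (171 and 128). The interneuron genes therefore split differently across the clusters, in the same order in both libraries. Col14a1, a fibril-associated chain that binds collagen I, was at 47.9 and 61.4 CPM in cluster 24, against 13.5 and 10.6 in cluster 21 and 2.39 and 4.65 in cluster 23. Col26a1, a secreted collagen first found in testis and ovary, was instead highest in cluster 23 (81.1 and 63.7 CPM), against 39.6 and 36.4 in cluster 21 and 31.2 and 34.5 in cluster 24. Lama3 was at 47.9 and 62.1 CPM in cluster 24, 21.2 and 37.7 in cluster 23, and 0.965 and 3.8 in cluster 21.

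**Figure D3:**
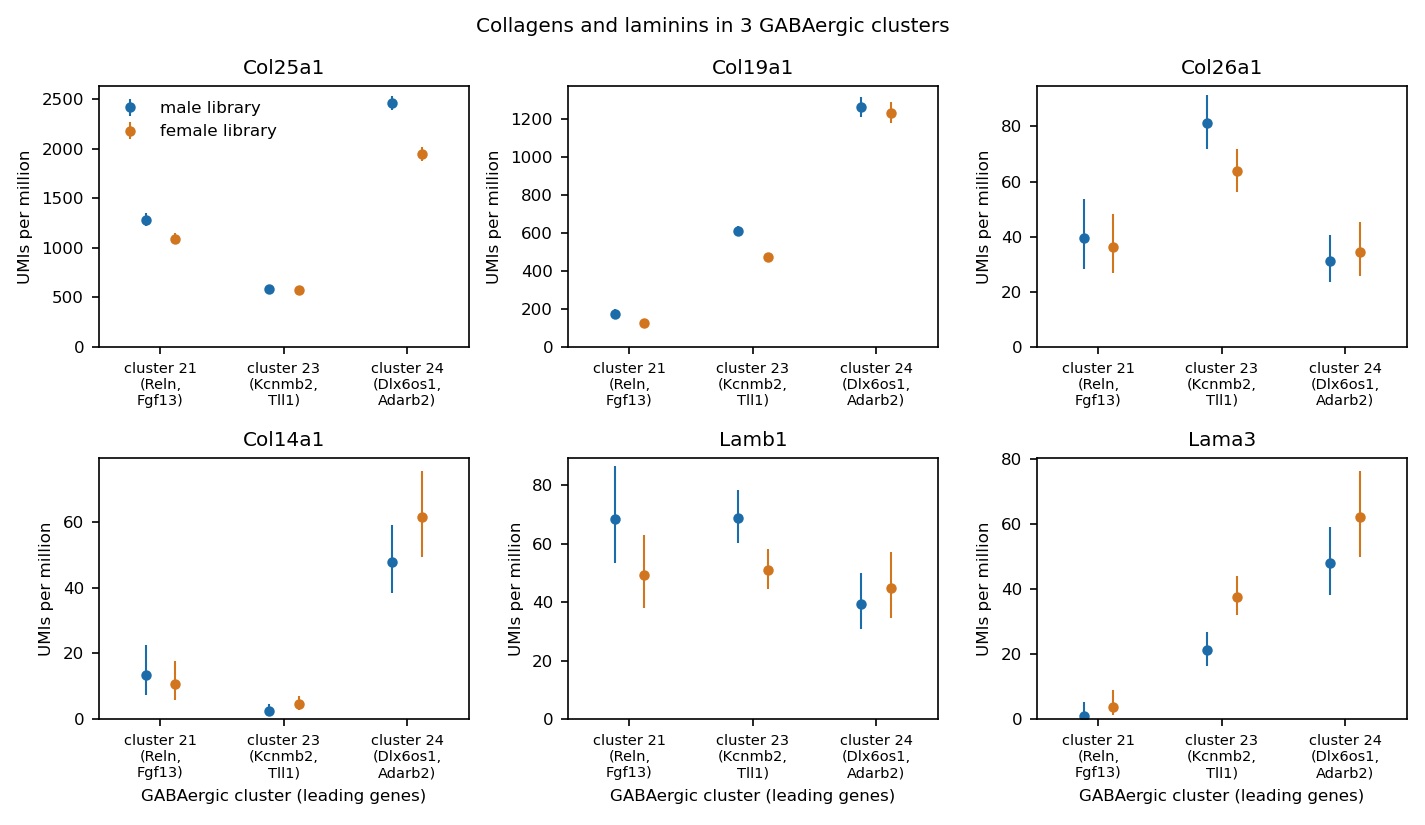
CPM (UMIs per 1000000 UMIs) of 6 genes in the 3 larger GABAergic clusters, male and female library, with exact Poisson 95% intervals; each panel has its own linear axis from 0. Col25a1, Col19a1, Col14a1 and Lama3 are highest in cluster 24, Col26a1 in cluster 23, and the order of clusters is alike in both libraries for all but Lamb1.

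The other fibril-associated collagens were spread over more classes. Col16a1, made by many connective tissue cells, was highest in glia, at 59.3 CPM in male astrocytes and 31.9 CPM in female astrocytes and 40.1 and 65 CPM in oligodendrocyte precursors. Oligodendrocytes held 14.5 and 25.1 CPM of it and GABAergic interneurons 19 and 20.3 CPM. Col12a1, which links fibrils in tendon and fascia, was at 22.9 and 21.8 CPM in CA3 and 16.9 and 7.37 CPM in subiculum or entorhinal neurons, with fibroblasts above both at 61.8 and 125 CPM. Col20a1 was at 12.2 and 11.5 CPM in granule neurons, and Col22a1, known from myotendinous junctions, at 8.28 and 7.44 CPM in CA1 and 4.5 and 3.8 CPM in granule neurons. Neither passed 2-fold between neurons and vessels or fibroblasts. Col9a3, a chain of cartilage collagen IX, was at 652 CPM (85 UMIs) in male choroid plexus, against 25 and 26.7 CPM in astrocytes, 27.4 and 26 CPM in oligodendrocyte precursors and 16.9 and 14.8 CPM in oligodendrocytes. Col9a3 overlaps Tcfl5 in the annotation, and whether reads were counted by strand was not given in the sources used here.

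Of the fibril-forming collagens, Col11a1 (chromosome 3, 114030540 to 114220718, plus strand), a minor chain that seeds thin fibrils in cartilage, was found in several neuronal classes. Col11a1 was at 91.1 CPM in male and 121 CPM in female CA1, at 63.9 and 269 CPM in CA3, at 12 and 59.7 CPM in subiculum or entorhinal neurons, and at 38.9 and 70.9 CPM in interneurons. Granule neurons were near background at 2.44 and 2.41 CPM, against 3.09 and 10.3 CPM in microglia. Pyramidal and granule neurons thus stood apart in both libraries. Cajal-Retzius cells held 238 CPM from 17 male UMIs and 229 CPM from 7 female UMIs, and oligodendrocyte precursors 96 and 108 CPM. In CA3 a Col11a1 UMI was found in 24.4% of male and 61.8% of female nuclei (thinned 5.01% and 18.5%), and in microglia in 0.507% and 1.57% (thinned 0.398% and 0.938%). Median depths in CA3 were 10695 and 11114.5 UMIs.

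The remaining fibril-forming chains differed in where they were highest. Col27a1, a fibril collagen of cartilage, was at 145 CPM in male microglia and 185 CPM in female microglia, in 20.3% and 25.8% of their nuclei, against 0.569 and 2.22 CPM in neurons. Oligodendrocyte precursors held 39.2 and 64.3 CPM and female thalamic neurons 36.4 CPM. Col11a2, which pairs with Col11a1 in cartilage, was at 56.7 and 48.6 CPM in astrocytes and 37.2 and 32.1 CPM in oligodendrocyte precursors, and so not in the neurons that held Col11a1. Col5a2 was at 56.1 and 112 CPM in fibroblasts, 29.1 and 19.7 CPM in interneurons and 12 and 21.4 CPM in astrocytes, and its partner chain Col5a1 at 9.75 and 6.58 CPM in subiculum or entorhinal neurons and 4.89 and 3.34 CPM in granule neurons. Col5a3 was at 38.2 and 32.9 CPM in oligodendrocyte precursors. The chains of collagen I, the bulk collagen of meninges, marked fibroblasts. Col1a2 was at 191 CPM in male and 357 CPM in female fibroblasts, against 0.19 and 0.42 CPM in neurons, and Col1a1 at 78.6 and 144 CPM, against 0.19 and 0.461 CPM.

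Of collagen IV, Col4a1 and Col4a2 were found in neurons and vessels. Its genes lie in head-to-head pairs on opposite strands, and the starts of Col4a1 and Col4a2 each lie inside the other gene. Col4a1 and Col4a2, which make the common trimer of basement membranes, were both present in every principal class. In CA3 Col4a2 was at 115 CPM in male and 103 CPM in female nuclei, and Col4a1 at 90.2 and 84.3 CPM. CA1 held 74.2 and 74.2 CPM of Col4a2 and 72.1 and 69.5 CPM of Col4a1, and granule neurons 31.9 and 33.7 CPM of Col4a2 and 26.4 and 26.8 CPM of Col4a1. Interneurons had 76.8 and 71.3 CPM of Col4a2 and 41.3 and 40.8 CPM of Col4a1. The neuronal levels differed little between the libraries. Endothelial cells had 99.9 CPM in the male library and 143 CPM in the female one for Col4a1, and 99.9 and 91.3 CPM for Col4a2. CA3 neurons lay near these levels, except for Col4a1 in the female library. The male endothelial levels are imprecise, since each rests on 13 UMIs in 26 nuclei, against 799 UMIs of Col4a1 and 1016 of Col4a2 in male CA3. A Col4a2 UMI was found in 69.3% of male and 64.8% of female CA3 nuclei (thinned 9.76% and 9.06%), and in 1.65% and 0.997% of microglia (thinned 0.93% and 0.625%). Over all neurons against vessels, Col4a1 was at -0.30 in the male library and -1.29 in the female one and Col4a2 at -0.09 and -0.27, so neither passed 2-fold in both.

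The other collagen IV chains were near 0 in neurons. Col4a5 was at 135 CPM in male and 133 CPM in female fibroblasts, 37.3 and 56.1 CPM in astrocytes and 24.3 and 59.3 CPM in pericytes, against 0.522 and 1.06 CPM in neurons. Col4a6 was at 129 and 188 CPM in fibroblasts, against 0.838 and 1.22 CPM in neurons. Col4a3 was at 199 CPM (26 UMIs) and Col4a4 at 146 CPM (19 UMIs) in male choroid plexus. In pericytes Col4a3 was at 72.9 and 55.6 CPM and Col4a4 at 14.6 and 44.4 CPM, from 3 male UMIs for Col4a4. These chains are known from kidney glomerulus and, for Col4a5 and Col4a6, from smooth muscle and skin.

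The members of a pair were correlated over classes. Across the 14 classes of a library with at least 20 nuclei, Pearson's r of log2(CPM + 5) between Col4a1 and Col4a2 was 0.88 in the male library and 0.86 in the female one, between Col4a5 and Col4a6 0.76 and 0.76, and between Col4a3 and Col4a4 0.75 and 0.69. These classes share a library and its depth, and small classes weigh as much as large ones. No r of other gene pairs is given beside these. The ratio of Col4a1 to Col4a2 UMIs was 0.538 in male interneurons and 1.5 in male fibroblasts, and 0.31 in female oligodendrocyte precursors and 2.19 in female fibroblasts. The other pairs varied more. Col4a5 to Col4a6 ran from 0.2 (CA1) to 22.4 (astrocytes) in the male library and from 0.353 (granule neurons) to 10.2 (astrocytes) in the female one. Col4a3 to Col4a4 ran from 0.0732 (granule neurons) to 5 (pericytes) and from 0.111 (oligodendrocytes) to 1.25 (pericytes). The windows of 250 bases before to 50 bases after the RefSeq starts on GRCm38.p6 are shown for the pairs, 5′ to 3′ on the strand of each gene, with capitals for 3 motifs searched on both strands, none of which overlap here: CCAAT as the CCAAT box, GGGCGG as the GC box and TATAAA as the TATA box. Col4a1 lies on the minus strand at chr8:11312777-11313076 and Col4a2 on the plus strand at chr8:11312555-11312854, and their starts are 21 bases apart. Col4a5 lies on the plus strand at chrX:141475169-141475468 and Col4a6 on the minus strand at chrX:141474027-141474326, with starts 1343 bases apart.
Col4a1: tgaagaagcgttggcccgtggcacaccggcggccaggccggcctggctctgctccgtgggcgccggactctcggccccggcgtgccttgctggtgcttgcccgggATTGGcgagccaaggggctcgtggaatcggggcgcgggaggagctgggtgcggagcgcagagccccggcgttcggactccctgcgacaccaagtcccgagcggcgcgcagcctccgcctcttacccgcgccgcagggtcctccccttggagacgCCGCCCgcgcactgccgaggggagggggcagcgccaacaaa
Col4a2: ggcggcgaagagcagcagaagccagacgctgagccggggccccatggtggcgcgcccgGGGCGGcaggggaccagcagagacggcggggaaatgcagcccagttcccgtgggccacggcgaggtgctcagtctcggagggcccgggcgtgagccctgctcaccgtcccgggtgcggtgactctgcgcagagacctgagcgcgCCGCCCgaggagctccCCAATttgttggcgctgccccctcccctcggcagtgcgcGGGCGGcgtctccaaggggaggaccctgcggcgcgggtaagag
Col4a5: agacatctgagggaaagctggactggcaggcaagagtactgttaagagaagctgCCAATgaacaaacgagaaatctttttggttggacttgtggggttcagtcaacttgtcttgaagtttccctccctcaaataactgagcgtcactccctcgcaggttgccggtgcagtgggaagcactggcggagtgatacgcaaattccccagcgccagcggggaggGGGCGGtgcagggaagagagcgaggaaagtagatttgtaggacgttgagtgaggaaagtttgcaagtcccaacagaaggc
Col4a6: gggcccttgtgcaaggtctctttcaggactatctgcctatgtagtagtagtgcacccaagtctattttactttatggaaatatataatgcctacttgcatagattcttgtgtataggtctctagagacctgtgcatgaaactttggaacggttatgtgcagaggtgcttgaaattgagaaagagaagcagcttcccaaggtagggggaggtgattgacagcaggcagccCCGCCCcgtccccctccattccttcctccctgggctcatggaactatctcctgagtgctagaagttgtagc

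The windows of Col4a1 and Col4a2 share 78 bases, and those of Col4a5 and Col4a6 share 0. Col4a1 held 1 CCAAT box and 1 GC box, Col4a2 held 1 CCAAT box and 3 GC boxes, Col4a5 held 1 of each, and Col4a6 held 1 GC box. The GC box of Col4a1 and the last GC box of Col4a2 are the same site in the shared bases, counted in both windows. The letters of the TATA box were in none of these windows. Over 32851 promoters in the same table, 37.4% held a CCAAT box, 35.7% a GC box and 13.6% a TATA box. The GC content was 74% for Col4a1, 73.7% for Col4a2, 52.7% for Col4a5 and 48.3% for Col4a6. A match is a description of the letters only. Of the 55 genes, 40 had a promoter in the table.

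Collagens VI, VIII, XV, XVIII and XXVI were mostly low. Col6a1, a chain of the beaded filaments around cells, was at 33.3 CPM in male CA3 and 14.6 CPM in female CA3, 18.6 and 8.43 CPM in subiculum or entorhinal neurons and 8.4 and 8.44 CPM in granule neurons, with fibroblasts at 33.7 and 104 CPM. Col6a4 was at 7.38 and 9.62 CPM in CA1. Col6a3 was at 58.8 and 48.7 CPM in microglia and so did not follow Col6a1. Col8a1, a short-chain collagen of vessel walls and the cornea, was at 598 CPM (78 UMIs) in male choroid plexus and at 152 and 87.2 CPM in fibroblasts, against 1.01 and 0.901 CPM in neurons. Its partner Col8a2 was at 138 CPM in male choroid plexus and 22.5 and 79 CPM in fibroblasts. Choroid plexus markers were counted in other classes too, more so in the male library. Their summed level over 8 markers was 1173 CPM in male and 270 CPM in female fibroblasts, 1069 and 216 CPM in vessels and 713 and 159 CPM in neurons. In male choroid plexus it was 17164 CPM. The part of such RNA in the vessel and fibroblast levels of Col8a1, Col8a2, Col4a3 and Col4a4 was not tested. Col15a1, a source of an endostatin-like fragment, was at 24.7 and 26.5 CPM in microglia, and at 40.9 CPM from 15 UMIs in female and 5.61 CPM from 1 UMI in male fibroblasts. Col18a1, the source of endostatin, was at 28.4 and 19.9 CPM in oligodendrocyte precursors. Col26a1 was at 59.6 and 52.5 CPM in interneurons, 39.5 CPM in female thalamic neurons and 50.5 and 24.5 CPM in fibroblasts, against 5.96 and 11.8 CPM in vessels.

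The laminins were divided by chain. Lama2, the alpha chain of astrocyte endfeet, pericytes and muscle, was at 654 CPM in male and 832 CPM in female astrocytes, 332 and 411 CPM in oligodendrocytes, 331 and 678 CPM in pericytes, 254 and 196 CPM in endothelial cells and 500 and 477 CPM in fibroblasts. Neurons held 7.65 and 13.2 CPM and microglia 10.1 and 12.8 CPM. A Lama2 UMI was found in 75.9% of male and 81.7% of female astrocytes (thinned 45.8% and 51.3%), and in 1.52% and 1.71% of microglia (thinned 1.06% and 1.09%). Astrocytes had median depths of 2745.5 and 2921 UMIs. Lama2 thus gave 85.1% and 89% of the laminin UMIs of astrocytes and 45.7% and 48.7% of those of vessels. Astrocyte markers were also present in vessel nuclei, with a summed level over 8 markers of 1397 CPM in male and 1613 CPM in female vessels, against 4593 and 5544 CPM in astrocytes and 151 and 125 CPM in neurons. Oligodendrocyte markers summed to 977 and 1615 CPM in vessels, and the part of either in the vessel Lama2 was not tested.

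The other alpha chains were each placed differently. Lama3, an epithelial chain, was at 60 CPM in male and 45.6 CPM in female astrocytes and 25.5 and 36.2 CPM in interneurons, with female ependymal cells at 139 CPM. Lama4, the chain of endothelial and mural basement membranes, was at 44.7 CPM in male and 44.7 CPM in female vessels, 50.5 and 51.8 CPM in fibroblasts and 49 and 55.1 CPM in oligodendrocyte precursors, against 3.05 and 2.96 CPM in neurons. Lama1, the chain of the pial membrane, was at 135 and 392 CPM in fibroblasts, against 0.601 and 1.26 CPM in neurons. Lama5 was at 30.7 CPM from 4 male UMIs and 29.3 CPM from 17 female UMIs in endothelial cells, against 1.42 and 1.24 CPM in neurons.

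Lamc1 and Lamb1 gave most laminin UMIs of neurons. Lamc1, the gamma chain of most laminins, gave 60% of neuronal laminin UMIs in the male library and 57.8% in the female one. Granule neurons held 106 and 123 CPM of it, CA1 held 98.8 and 103 CPM and CA3 63 and 47.3 CPM, against 191 and 163 CPM in vessels. Oligodendrocyte precursors held 107 and 216 CPM and oligodendrocytes 69.9 and 171 CPM. Lamb1, the matching beta chain, was at 60.2 and 49.4 CPM in interneurons, 47.2 and 40.9 CPM in CA3 and 32.7 and 29.4 CPM in granule neurons. All neurons together held 33.4 and 29.5 CPM of Lamb1, against 38.7 and 28.2 CPM in vessels. Lamb2, the beta chain of mature vessels and synapses, was at 0.601 and 0.541 CPM in neurons, against 20.8 and 37.6 CPM in vessels. Lamb3 was at 8.12 and 5.08 CPM in CA3. Lamc3 was at 0.332 and 0.26 CPM in neurons, against 32.8 and 18.8 CPM in vessels.

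Set against vessels gene by gene, few members were higher in neurons. Of the 55 genes, 52 had at least 20 UMIs over both classes in each library; Col3a1, Col1a1 and Col1a2 did not. Neurons were at least 2-fold higher in both libraries for 2 of 52 (3.85%), where 1.07% of all genes counted were, and at least 2-fold lower for 9 of 52 (17.3%), against 7.04% of all genes. The higher genes were Col25a1 (256 CPM in neurons and 89.4 CPM in vessels of the male library, 310 and 135 CPM in the female) and Col11a1. Both calls hold for the pooled neurons and not for every class. Col25a1 was near or below the vessel level in CA1 (96.3 and 106 CPM), subiculum or entorhinal neurons (95.1 and 113) and CA3 (56.2 and 45.7). Col11a1 was at 2.44 and 2.41 CPM in granule neurons, against 31.8 CPM in female vessels. The log2 ratio of Col25a1 was 1.47 (0.98 to 2.00) in the male library and 1.17 (0.91 to 1.43) in the female one. Male vessels had no Col11a1 UMI, so by counting error alone male neurons were at least 4.26-fold higher, taking 3 UMIs as the limit of a count of 0. The female ratio of Col11a1 was 1.46 (0.98 to 1.96). With a stricter nucleus filter, which left 20 male and 17 female vessel nuclei, the female ratio of Col25a1 was 0.00. Male vessels also had no Col19a1 UMI, so by counting error alone male neurons were at least 8.64-fold higher. That bound is not firm, since the Col19a1 UMIs of female endothelial cells lay in few nuclei, as given above. In the female library the 86.7 CPM of neurons stood against 51.7 CPM of vessels, and the gene was not past 2-fold in both. Laminins made up 5 of the lower genes: Lama2 (-4.60 male, -4.29 female), Lama4 (-2.63, -2.64), Lamb2 (-2.21, -2.94), Lamc3 (-2.82, -2.18) and Lama5 (-1.40, -2.00). The 4 lower collagens were Col4a3 (-3.46, -2.16), Col4a5 (-2.23, -3.07), Col11a2 (-1.55, -1.04) and Col8a1 (-1.49, -1.51). The stricter filter gave 0.25 for Col8a1 in the female library, and thinning nuclei to 1000 UMIs gave 0.40 for Col11a2 in the male one. Thus 5 of 11 laminins and 4 of 41 collagens were lower in neurons. The median over the 52 genes was -0.26 in the male library and -0.40 in the female one, against -0.04 and -0.13 over all genes, and -0.95 and -0.54 with the genes at 0 in vessels (16 male, 5 female) set at 3 UMIs.

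Against fibroblasts the difference was wider. Of 54 genes counted (all but Col3a1), 1 was at least 2-fold higher in neurons in both libraries (1.85%, against 3.58% of all genes) and 22 were at least 2-fold lower (40.7%, against 8.37% of all genes). The higher one was Col19a1. Male fibroblasts had no UMI of it, so by counting error alone male neurons were at least 4.59-fold higher. Female fibroblasts had 1 UMI, a log2 ratio of 3.57 (2.18 to 4.18). This call holds for the pooled neurons, of whose Col19a1 UMIs interneurons gave 4487 of 4885 in the male library and 4002 of 4330 in the female one. Granule neurons (3.73 and 2.04 CPM) and CA1 (3.98 and 4.23 CPM) lay below the 16.8 CPM that 3 UMIs are worth in male fibroblasts. The largest gaps were Col1a2 (-5.24 male, -6.06 female), Lama2 (-5.32, -4.73), Lama1 (-4.64, -5.99), Col4a6 (-4.52, -4.96), Col4a5 (-4.66, -4.51), Col1a1 (-4.01, -4.77) and Col8a1 (-4.70, -3.97). Fibril, basement membrane and short-chain collagens were thus all among them. The next were Lamc3 (-3.38, -2.35), Lamb2 (-2.98, -2.96), Lama4 (-2.79, -2.83), Col13a1 (-3.18, -2.61), Col12a1 (-2.54, -3.64), Col8a2 (-2.36, -3.95), Col5a2 (-2.29, -3.30), Col6a3 (-1.98, -2.66) and Col18a1 (-1.98, -2.44). Membrane-spanning collagens were included, since Col25a1 was at -1.95 (male) and -2.23 (female) and Col23a1 at -1.61 and -3.37. Col6a2 (-1.88, -3.52), Col6a1 (-1.17, -3.28), Col11a2 (-1.69, -1.18) and Col9a2 (-1.50, -1.09) completed the 22. The median over the 54 genes was -0.79 and -1.0, against 0.04 and -0.11 over all genes, and -1.85 and -1.16 with the genes at 0 in fibroblasts (16 male, 9 female) set at 3 UMIs. Several of these rest on few fibroblast UMIs, such as 3 male and 4 female for Col11a2 and 2 and 3 for Col9a2. Astrocyte markers summed to 151 and 125 CPM in neurons and 1769 and 1536 CPM in fibroblasts, and their part in the fibroblast Lama2 was not tested. Thinned to 1000 UMIs, the male ratios of Col6a1 (1.81) and Col11a2 (0.40) changed direction.

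**Figure D4:**
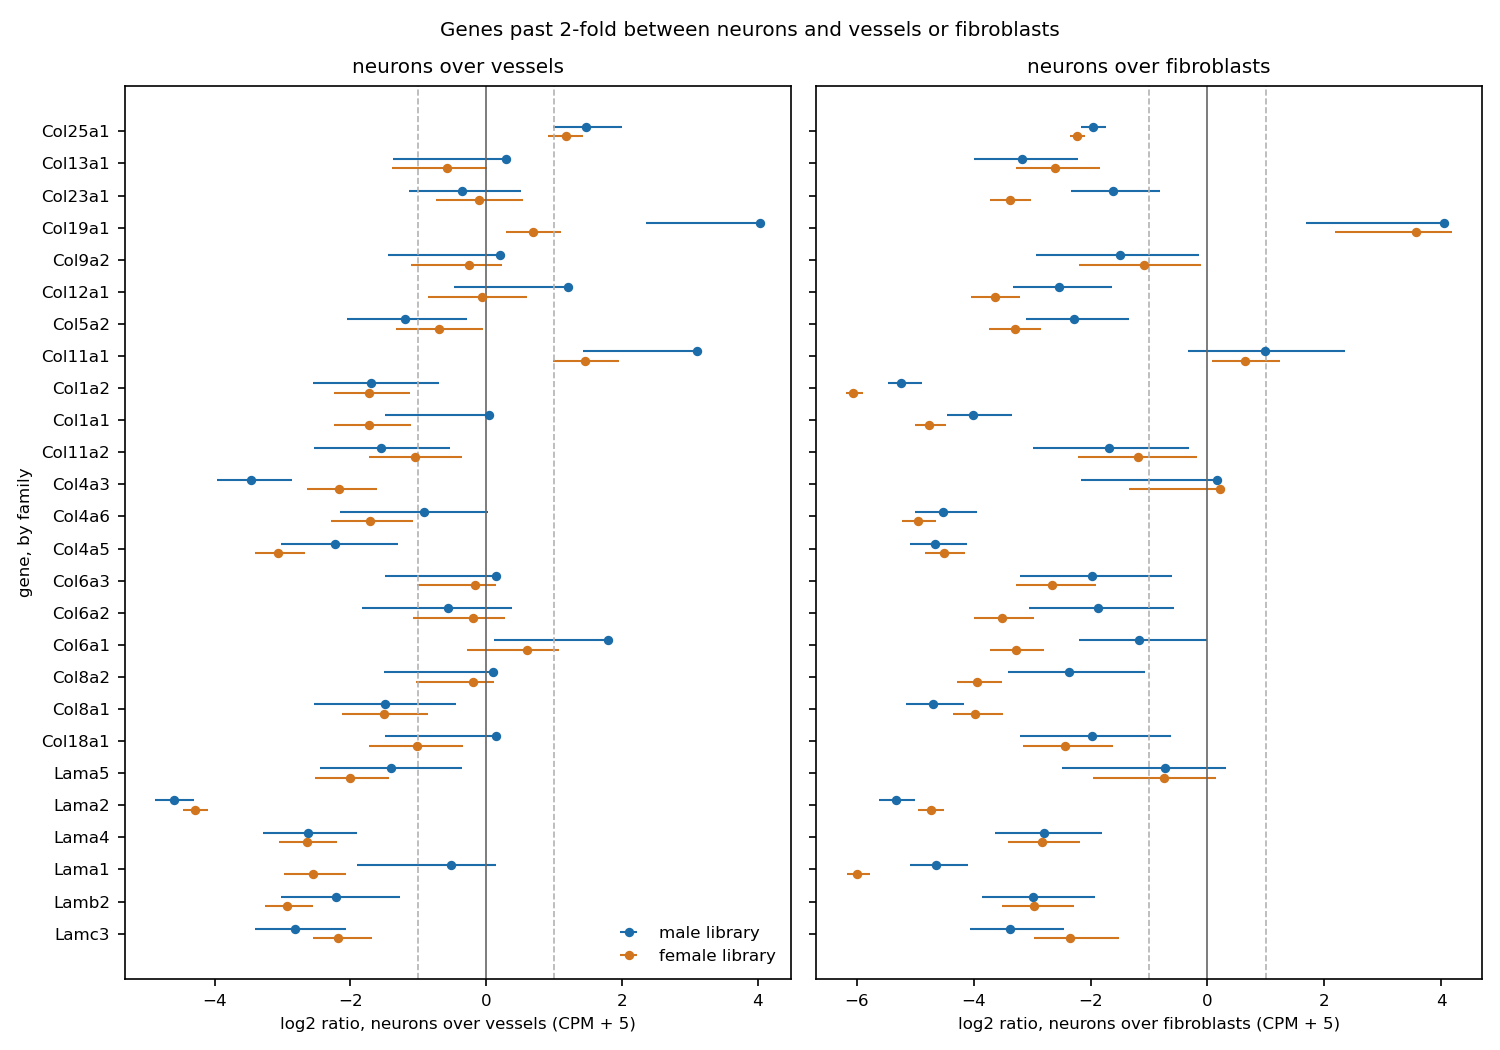
Log2 ratio of CPM plus 5, neurons over vessels (left) and over fibroblasts (right), for the genes past 2-fold in both libraries in either comparison, by family; points are the male and female library, bars are exact 95% intervals, and dashed lines mark 2-fold. Col25a1 lies above vessels (1.47 and 1.17) and below fibroblasts (-1.95 and -2.23), and most others lie left of 0; where a class had no UMI the point rests on the added 5 CPM.

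The genes that act on collagens and laminins followed in part. Against vessels, 1.07% of all genes were higher in neurons and 7.04% lower. Of 13 receptors counted 0 were at least 2-fold higher in neurons and 5 were lower. Itga1, an integrin that binds collagen IV, was at 1.83 CPM in male and 2.1 CPM in female neurons, against 241 and 226 CPM in vessels. The laminin receptors Itga6 (-2.87 male, -2.75 female) and Bcam (-2.46, -2.24), the shared chain Itgb1 (-1.01, -1.37) and the collagen-binding kinase Ddr1 (-1.01, -1.14) were the others. Of 13 folding and crosslinking genes 0 were higher and 3 lower, with the collagen chaperone Serpinh1 at -1.82 and -2.84, the lysyl hydroxylase Plod1 at -1.41 and -1.61 and Loxl3 at -1.57 and -1.17. Of 9 basement membrane partners 0 were higher and 5 lower: the linker Nid1 (-3.08, -3.34), perlecan Hspg2 (-2.79, -1.84), Sparc (-2.09, -2.92), Frem2 (-2.17, -1.98) and Smoc1 (-1.41, -1.10). Of 7 procollagen cleavage genes 1 was higher, Tll1, at 17.2 and 23 CPM in neurons, against 0 and 8.23 CPM in vessels. The male value gives at least 1.92-fold and the female log2 ratio was 1.08, and Tll1 also led interneuron cluster 23. Medians were -0.48 and -0.60 for receptors, -0.55 and -0.32 for folding, -1.41 and -1.56 for basement membrane partners and 0.31 and 0.23 for cleavage, against -0.04 and -0.13 over all genes. With genes at 0 set at 3 UMIs the receptor median was -0.64 in the male and the cleavage median 0.02.

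Against fibroblasts, where 3.58% of all genes were higher in neurons and 8.37% lower, 5 of 12 receptors were lower, led by the fibrillar collagen receptor Ddr2 (-3.19 male, -4.16 female), with Itga1 (-2.50, -1.39), Itgb4 (-1.45, -2.39), Itga10 (-1.26, -2.06) and Ddr1 (-1.23, -1.46). Of 12 folding genes 3 were lower, Serpinh1 (-2.95, -3.96), Loxl1 (-1.76, -1.37) and P4hb (-1.64, -1.34), and of 8 cleavage genes 2, the enhancer Pcolce (-2.01, -3.48) and the propeptidase Adamts2 (-1.90, -2.37). Of 7 basement membrane partners Sparc (-2.60, -3.09), Nid2 (-1.90, -1.48) and Smoc1 (-1.34, -3.66) were lower. Fras1 was the 1 partner gene higher in neurons, at 107 CPM in male and 118 CPM in female neurons, against 44.9 and 27.2 CPM in fibroblasts. Medians were -0.68 and -1.38 for receptors, -0.45 and -0.47 for folding, 0.11 and -0.01 for cleavage and -1.34 and -0.99 for basement membrane partners, against 0.04 and -0.11 over all genes. With genes at 0 set at 3 UMIs the cleavage medians were -1.06 and -0.67.

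Between the libraries few pairs of gene and class passed 2-fold. The kept nuclei had a median mitochondrial share of 0.637% in the male library and 1.5% in the female one. In the 12 classes that held 20 or more nuclei per library, 277 pairs of gene and class had at least 20 UMIs. The male library was at least 2-fold higher in 2 of them (0.722%, against 1.14% of pairs over all genes) and at least 2-fold lower in 17 (6.14%, against 1.31%). Granule neurons, CA1, interneurons, oligodendrocyte precursors and microglia had no such pair. Just short of it, Col25a1 in granule neurons was at 239 CPM in the male library and 464 CPM in the female one (-0.94, -1.0 to -0.89), with -0.92 in cluster 1 (3003 male, 1568 female nuclei) and -0.65 in cluster 2 (1029 and 147), and the collagen sum of granule neurons was at -0.65 (-0.70 to -0.61). Of the 17 lower pairs 13 fell in endothelial, mural and fibroblast nuclei, 13 of 41 counted there (31.7%), where 7.99% of all genes in endothelial cells, 8.16% in pericytes and 7.37% in fibroblasts were lower. In the other 9 classes 2 were higher (0.847%, against 0.532% of pairs over all genes) and 4 lower (1.69%, against 0.408%) of 236.

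Col11a1 was the gene with the most such pairs. In CA3 it had 566 male and 1856 female UMIs, a log2 ratio of -1.99 (-2.12 to -1.86), where 0.0682% of all genes were at least 2-fold lower. In subiculum or entorhinal neurons it had 111 and 453 UMIs (-1.92, -2.15 to -1.69), and in astrocytes 20 and 82 UMIs (-1.02, -1.46 to -0.55), where 0.315% and 0.379% of all genes were lower in those classes. With doublets kept the astrocyte ratio was 0.03. Fibroblasts had 3 and 22 UMIs (-1.57, -3.06 to -0.09). The male library was lower in each of these 4 classes, while CA1 at 91.1 and 121 CPM and oligodendrocyte precursors at 96 and 108 CPM were not past 2-fold. Interneurons were at -0.79 (-0.99 to -0.59) and microglia at -0.91 (-1.58 to 0.00), both also lower in the male library without passing 2-fold. Col11a1 was also at 33.8 CPM in male and 141 CPM in female unnamed nuclei, which were more numerous in the female library. The part of such RNA in the CA3 difference was not tested.

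In subiculum or entorhinal neurons Col23a1 (340 male and 49 female UMIs, 1.87, 1.59 to 2.13) was higher in the male library, where 0.547% of all genes were. This class was made up differently in the 2 libraries. Its cluster 9, led by Gm49906 and Tshz2, held 480 male nuclei (43.2% of the class) and 49 female nuclei (8.8%). Within cluster 9 Col23a1 was at 87 CPM in male and 3.96 CPM in female nuclei, from 267 and 2 UMIs. In cluster 8 Col23a1 was at 0.78 and in cluster 7 at 0.06 on the log2 scale. Col11a1 was lower in the male library in cluster 8 (9.12 against 69.4 CPM, -2.40) and cluster 7 (11.1 against 44.3 CPM, -1.61), and at -0.43 (-1.21 to 0.38) in cluster 9.

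Lamc1 was lower in male oligodendrocytes, with 298 male and 1153 female UMIs (-1.23, -1.41 to -1.05), where 0.477% of all genes were lower. The oligodendrocytes of the libraries lay in different clusters: cluster 19 held 95.9% of male nuclei and 4.96% of female ones, and cluster 20 held 4.09% and 95%. Within cluster 19 Lamc1 was at 68 CPM in male and 148 CPM in female nuclei (-1.06, -1.49 to -0.61), and within cluster 20 at 116 and 172 CPM (-0.54, -1.22 to 0.07). Lamc1 was thus lower in the male library within cluster 19, while the interval of cluster 20 spans 0.

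The vessel and fibroblast pairs rested on few male UMIs. In fibroblasts Lama1 had 24 male and 144 female UMIs (-1.51, -2.17 to -0.89), Col23a1 14 and 66 (-1.14, -2.02 to -0.33), Col6a1 6 and 38 (-1.49), Col8a2 4 and 29 (-1.61) and Col6a2 4 and 25 (-1.41). In pericytes Lama2 had 68 and 183 UMIs (-1.02, -1.44 to -0.62), Col4a1 9 and 38 (-1.58) and Col4a5 5 and 16 (-1.13, -2.51 to 0.21). The intervals of Lama1 and Lama2 were the narrow ones. In endothelial cells Col25a1 had 8 male and 75 female UMIs (-1.01, -2.14 to -0.02) and Col4a5 2 and 23 (-1.13, -2.79 to 0.58). The 26 male endothelial nuclei had no UMI of Col19a1 or Lama1, against 42 and 25 UMIs in 156 female nuclei. The female Col19a1 UMIs lay in few nuclei, as given above, and UMIs of the same nucleus are not independent. No minimum fold is therefore drawn from the male counts of 0.

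**Figure D5:**
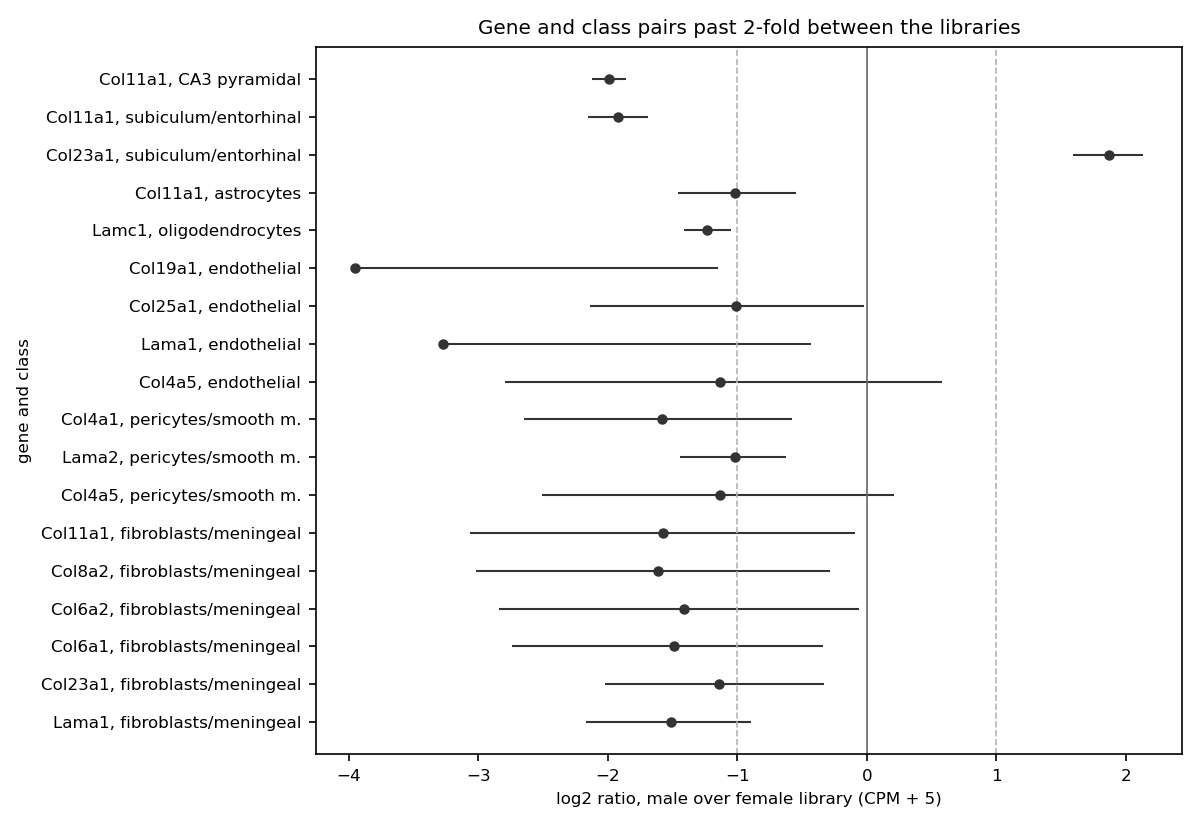
Log2 ratio of CPM plus 5, male over female library, for 18 of the 19 pairs of gene and class past 2-fold, with exact 95% intervals; dashed lines mark 2-fold. Neuronal and glial pairs such as Col11a1 in CA3 (-1.99) have narrow bars, and endothelial pairs with no male UMI (Col19a1, Lama1) have bars that reach over 2 units.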

How the data were processed

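Gene-by-barcode UMI counts of 1 male and 1 female library were used as deposited (Cell Ranger 7.0.1, per the file headers); bcl2fastq 2.20.0.422 and mm10 are named in the submitters' processing notes. How intronic reads and strand were handled is not given in the sources used here. Nuclei needed 500 genes and no more than 5% mitochondrial UMIs. Scrublet called 9.57% male doublets; it called 0% in the female library, so its top scores were called there (7.51%). With scanpy 1.11.5, nuclei were clustered without the 55 genes (3000 variable genes, 40 components, 15 neighbours, Leiden resolution 1) into 33 clusters; 6 with over 40% doublets were removed and 23 were named from 8 markers per class. A naming step added after the data were seen named GABAergic cluster 23. UMIs were summed per class as CPM, and ratios taken as log2 of CPM plus 5. Sums have exact Poisson, ratios exact conditional binomial and shares exact Clopper-Pearson intervals. Only the ratio interval was tested on simulated counts, at the UMI totals of CA3 neurons and for well-counted genes. Classes with few UMIs were not simulated. A pair counted with at least 20 UMIs. The endothelial class holds 26 male nuclei, and choroid plexus (25 male) and Cajal-Retzius cells (17 female) hold fewer, which limits the precision of their values.

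The members, marker lists and partner lists were chosen with earlier results of these data known. Values are given for the 30 genes with the most UMIs and for genes past 2-fold between libraries with at least 50 UMIs; other genes were named after their values were seen, because they were past 2-fold or highest in a class. Of the 55 genes, 55 were matched by identifier to the GENCODE annotation of GRCm38, and 19 overlap another annotated gene. Promoter sequences are from RefSeq on GRCm38.p6. Alternatives changed the added CPM, the UMI minimum, the weighting of neuronal classes, centring, doublets, the filter, the resolution, the genes clustered and the depth per nucleus. One gene's result between the libraries is not reported here, though the counts include it.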

Additional observations from a re-analysis of the deposited data

Results flagged for a closer look

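The direction of Col23a1 between the libraries differed by class. It was higher in the male library in subiculum or entorhinal excitatory neurons (log2 ratio 1.87) and lower in fibroblasts or meningeal cells (-1.14). The difference between these ratios was not tested, and each rests on 1 library per sex.

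Collagens also stood out in nuclei that took no class name and so entered no comparison. Col24a1, a fibril-forming collagen, was at 18.1 CPM from 7 UMIs in the 41 male and at 6.7 CPM from 62 UMIs in the 901 female nuclei of unnamed cluster 5, which is led by 6330411D24Rik, Pld5, Ebf1 and Ebf2. Col4a2 was at 124 CPM from 323 UMIs in the 144 male and at 119 CPM from 609 UMIs in the 262 female nuclei of unnamed cluster 6, led by Gm32647 and 4930467D21Rik, beside 92.7 and 86.2 CPM of Col4a1. Doublet calls made up 34.2% of cluster 6 before removal.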

How the results depend on the processing

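No paired analysis was possible because each sex has 1 library. For collagens of neurons over vessels the log2 ratio was 0.55 in the male library and 0.12 in the female one with neuronal classes weighted equally, and in the female library -0.30 with a stricter nucleus filter (1000 genes, 1% mitochondrial) and 0.13 at Leiden resolution 0.5, so its female sign is not settled. Over fibroblasts the collagen ratios stayed below 0 throughout: male -1.68 with equal weights, -1.78 with the stricter filter, -2.48 at resolution 0.5 and -2.42 thinned to 1000 UMIs; female -2.15 with equal weights, -2.72 at resolution 0.5, -2.18 with members in the clustering and -2.63 thinned. Laminins over vessels were -0.62 (male) and -0.90 (female) at resolution 0.5, -2.59 and -2.47 thinned, and -1.92 in the female library with the stricter filter; over fibroblasts they were -3.19 and -3.28 thinned and -2.61 in the female library with the stricter filter. The count of genes higher in neurons than in vessels (2) was 4 with 1 CPM added, 1 with the stricter filter, 0 at resolution 0.5 and 6 thinned, and the count lower (9) was 17 with 1 CPM added, 1 at resolution 0.5 and 3 thinned. Against fibroblasts the higher count (1) was 3 with 1 CPM added and 0 at resolution 0.5, and the lower count (22) was 7 thinned. Pairs higher in the male library (2) were 8 with 1 CPM added, 12 with no minimum of UMIs, 1 centred on the median gene, 4 with the stricter filter, 5 with members in the clustering and 4 thinned; pairs lower (17) were 47 with no minimum, 7 with the stricter filter and 7 thinned. Single ratios turned for 10 results. Over vessels these were Col25a1 0.00, Col8a1 0.25 and Lama1 0.33 (female, stricter filter), Lamc1 0.43 and Col19a1 -0.65 (male) and Col4a1 0.21 (female) at resolution 0.5, and Col11a2 0.40 (male, thinned). Over fibroblasts they were Col6a1 1.81 and Col11a2 0.40 (male, thinned), and between libraries Col11a1 in astrocytes was at 0.03 with doublets kept. At resolution 0.5 the endothelial class took 739 male and 3839 female nuclei (26 and 156 otherwise), and GABAergic interneurons held 5 male and 20 female nuclei (648 and 608 otherwise), so those ratios set other nuclei against each other. The stricter filter left 20 male and 17 female vessel nuclei. Vessel and fibroblast values are limited by these numbers.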
